A study of Mus musculus with 9 samples.

Results

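The regions described here held a peak of open chromatin in wild-type (WT) mouse mesenchymal progenitor cells and in one *Atrx* knockout (KO) clone, G7, but in no library of the other KO clone, B10. They were chosen by the presence of peaks alone. Overlapping or touching peaks of all 9 libraries on chromosomes 1 to 19 were merged into 132893 regions, and a member had a peak in at least 2 of 3 WT libraries, at least 2 of 3 G7 libraries and 0 of 3 B10 libraries. This gave 1622 members. A consensus region had a peak in at least 2 of 3 libraries of any line, and the members were 1.70% of the 95142 consensus regions. The absence in B10 is therefore how the members were found and not a finding about them.

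The libraries were Omni-ATAC-seq libraries of C3H/10T1/2 cells, an established mouse line used as a model of mesenchymal progenitors, with 3 libraries each of WT, B10 and G7. WT cells had received Cas9 on a vector without a guide. B10 and G7 carry *Atrx* knockouts made by transient transfection of Cas9 and a guide followed by sorting of single cells, and each is 1 clone from a different guide, so the guide, the clone and the loss of ATRX cannot be told apart in a difference that only 1 clone shows. ATRX, encoded on the X chromosome, is a chromatin remodeller that works with DAXX to deposit the histone variant H3.3 and is best known at repeats, telomeres and silenced chromatin.

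In ATAC-seq a transposase cuts DNA that is not tightly packed, so a peak marks a promoter, an enhancer or an insulator that proteins keep open. Promoters rich in CpG dinucleotides tend to be open in most cell types. Enhancers are more often restricted to a cell type and hold sites for factors such as AP-1, a dimer of FOS and JUN proteins that recognises TGACTCA or TGAGTCA. C3H/10T1/2 cells can form fat, cartilage, bone and muscle, and genes of these lineages lie near some of the members.

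The lists held 76385 to 88535 peaks per library, with the B10 lists (81315 to 88535) above the WT (78139 to 81226) and G7 (76385 to 79464) lists, so that the absence of B10 peaks did not go with short B10 lists. Read counts are not among these values, which leaves the depth of each single library unknown, and a region without a peak is one where none was detected. The sources do not say whether replicates were separate cultures, so p-values measure only the spread between these libraries. Of 14 mesenchymal marker genes, 12 had a promoter peak in every library. Per library, peaks were found at 2 to 3 of 6 neural and 1 to 3 of 5 endothelial marker promoters. The other classes had 0 to 2 of 6 (epithelial), 0 to 2 of 6 (haematopoietic) and 0 to 1 of 4 (hepatocyte). The *Atrx* promoter had a peak in 9 of 9 libraries, which does not check the knockout, since a peak list does not show the edit.

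Sequences of 201 bp around the highest summit of a member (GRCm38, the assembly of mm10, plus strand, from the RefSeq copy of the genome) are shown for the regions that carry the results below. The first group shows strong members that lacked an AP-1 match, with every CpG in capitals. They lie near *Negr1*, which encodes a neuronal adhesion protein (chr3:156560774-156560974), near *Gm41505*, where *Kcnj6* has the nearest protein-coding start (chr16:94724104-94724304), at the start of *4921507P07Rik* (chr6:50596940-50597140) and in an intergenic stretch whose nearest protein-coding start is that of *Myt1l*, a neuronal zinc finger factor (chr12:29291077-29291277).
*Negr1*: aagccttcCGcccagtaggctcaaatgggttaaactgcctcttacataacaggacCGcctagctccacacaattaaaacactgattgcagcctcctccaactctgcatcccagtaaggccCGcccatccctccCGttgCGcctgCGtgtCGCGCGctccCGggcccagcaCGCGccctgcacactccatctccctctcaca
*Kcnj6*: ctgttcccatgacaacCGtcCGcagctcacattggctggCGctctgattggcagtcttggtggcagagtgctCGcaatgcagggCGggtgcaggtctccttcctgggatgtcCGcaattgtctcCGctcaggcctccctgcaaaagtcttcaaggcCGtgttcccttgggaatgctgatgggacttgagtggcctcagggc
*4921507P07Rik*: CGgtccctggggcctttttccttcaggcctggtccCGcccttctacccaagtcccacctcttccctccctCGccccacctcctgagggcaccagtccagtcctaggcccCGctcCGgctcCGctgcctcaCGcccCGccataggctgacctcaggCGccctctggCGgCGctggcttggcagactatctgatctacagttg
*Myt1l*: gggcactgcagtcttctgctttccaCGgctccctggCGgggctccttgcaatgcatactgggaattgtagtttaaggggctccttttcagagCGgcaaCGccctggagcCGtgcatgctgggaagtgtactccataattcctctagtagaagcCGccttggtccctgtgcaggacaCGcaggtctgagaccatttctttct

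The second group shows members with an AP-1 match, which is in capitals. They lie in introns of *Zfp423*, a zinc finger factor that commits progenitors to the fat lineage (chr8:87775149-87775349), *Susd4*, a complement regulator (chr1:182839694-182839894), and *Plekhh1* (chr12:79038729-79038929), and near *Tmem211* inside *Sgsm1* (chr5:113249575-113249775).
*Zfp423*: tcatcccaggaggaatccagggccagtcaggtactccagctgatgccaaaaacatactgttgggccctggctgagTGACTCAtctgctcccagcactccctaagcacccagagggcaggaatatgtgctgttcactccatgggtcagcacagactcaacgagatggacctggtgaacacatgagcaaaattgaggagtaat
*Susd4*: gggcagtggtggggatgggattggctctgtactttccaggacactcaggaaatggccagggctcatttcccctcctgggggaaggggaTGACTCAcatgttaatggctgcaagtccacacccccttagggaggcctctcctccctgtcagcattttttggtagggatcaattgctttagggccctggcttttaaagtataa
*Plekhh1*: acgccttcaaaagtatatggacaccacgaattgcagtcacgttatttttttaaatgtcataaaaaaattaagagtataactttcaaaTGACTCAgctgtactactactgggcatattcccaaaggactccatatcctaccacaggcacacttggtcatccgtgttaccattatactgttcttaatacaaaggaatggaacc
*Tmem211*: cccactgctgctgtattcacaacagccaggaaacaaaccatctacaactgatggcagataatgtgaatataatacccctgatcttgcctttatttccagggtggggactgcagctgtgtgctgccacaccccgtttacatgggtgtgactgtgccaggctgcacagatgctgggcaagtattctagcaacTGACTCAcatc

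To describe how strong the members were where they were open, each peak was given a rank, the percentile of its −log10 q-value within its own library, where 100 is the strongest peak. Most members were weak. Their median rank was 28.7, 29.1 and 28.8 in WT replicates 1, 2 and 3 and 23.9, 25.4 and 22.9 in the G7 replicates, while all consensus regions with a peak had medians of 52.6 to 56.8 over the 9 libraries. The median fold enrichment of the members over the background of the peak caller was 5.86 to 6.17 in WT and 5.05 to 5.19 in G7. All 3 WT libraries lay above all 3 G7 libraries in both measures. Over all consensus regions the median fold enrichment had the same order, at 8.82 to 9.12 in WT and 8.15 to 8.499 in G7. The order in fold enrichment was therefore not particular to the members. The median ranks of all consensus regions overlapped between WT and G7.

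Members were also unevenly detected among replicates. A peak was found at 1146, 1487 and 1472 members in WT replicates 1, 2 and 3 and at 1063, 1411 and 1431 members in the G7 replicates. Replicate 1 was the lowest of both lines, although it held the longest list in both. A peak in 3 of 3 WT and 3 of 3 G7 libraries was found at 442 members (27.3%), and 542 members (33.4%) had the minimum of 2 in each line. Just outside the rule were 2339 regions with a peak in 1 of 3 B10 libraries, most often B10 replicate 2 (1026) and least often B10 replicate 1 (568). Those B10 peaks had a median rank of 19.5, while the WT and G7 peaks of the same regions had a median of 27.7, against 26.3 for the members.

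**Figure D1:**
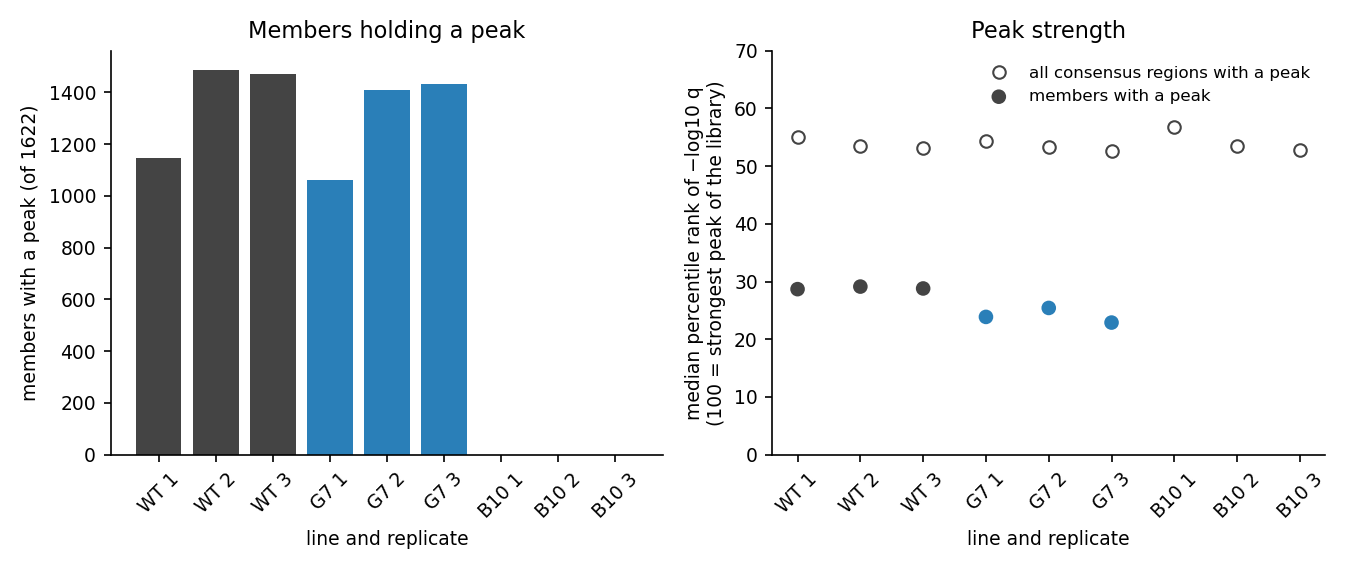
Left, number of members with a peak in each library. Right, median percentile rank of −log10 q of the peaks at members (filled) and at all consensus regions (open circles) in each library. Members hold no B10 peak by the rule. In WT and G7 their median ranks lie between 22.9 and 29.1, below the 52.6 to 56.8 of all consensus regions.

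The strongest members were mostly promoters. Among the 442 members with a peak in all 6 WT and G7 libraries, 36 had a rank of at least 50 in every one of them, and 28 of these 36 lay within 3 kb of an annotated start site, 24 had 8 or more CpG in the 201 bp around the summit and 1 had an AP-1 match. A rank of at least 70 in every library was reached by 12 members, of which 11 were at a promoter. Regions other than members that reached these ranks in every library were not counted. By the looser measure of a mean rank over 50, 43.9% of consensus regions were at a promoter and 27.8% had 8 or more CpG.

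The *Onecut2* promoter (chr18:64339376-64340386) had the highest lowest rank over the 6 WT and G7 libraries. *Onecut2* encodes a homeodomain factor of liver, retina and neurons. Its ranks were 93.2, 89.3 and 88.9 in WT and 85.5, 83.3 and 83.9 in G7, with fold enrichments of 23.1, 21.2 and 20.3 in WT and 19.3, 17.2 and 16.8 in G7. The WT libraries lay above the G7 libraries without overlap, but the difference on the log2 scale was -0.18 ± 0.08 (SE), which did not pass the test described below (limma adjusted p = 0.31). The nearest B10 peak was 37.5 kb away.

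The *Zfp13* promoter (chr17:23598762-23599608), at a gene for a zinc finger protein, had ranks of 80.2, 79.1 and 80.8 in WT and 83.4, 82.5 and 82.2 in G7, so here G7 was above WT. *Negr1* held a pair of neighbouring members. The one at chr3:156560608-156561174 had ranks of 89.3, 84.8 and 80.6 in WT and 85.2, 79.7 and 78.2 in G7. The other, over the start site itself (chr3:156561382-156562545), had 31 CpG in its window and ranks of 75.7, 74.3 and 70.8 in WT and 74.0, 72.4 and 70.7 in G7. In both regions the values of the lines overlapped.

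At *Tcaf1*, which encodes a regulator of the TRPM8 channel, the promoter (chr6:42709569-42710391) had ranks of 76.8, 74.0 and 72.8 in WT and 74.7, 72.5 and 78.4 in G7. The *Lrif1* promoter (chr3:106684784-106685566), at a gene for a partner of heterochromatin protein 1, had ranks of 76.6, 75.3 and 70.3 in WT and 78.4, 74.0 and 71.6 in G7. The lines overlapped at both promoters. At *Lrif1* the nearest B10 peak was 35.9 kb away, and at *Tcaf1* 6.87 kb.

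The *Tpd52* promoter (chr3:9003924-9004857) had 32 CpG in its window and ranks of 73.3, 72.5 and 71.1 in WT and 73.0, 72.8 and 70.5 in G7. Other members of this kind lay at the promoters of *Mrgprf*, an orphan receptor of the Mas-related family, *4921507P07Rik*, *Gm3604* and *Pgbd5*, which encodes a domesticated piggyBac transposase, with a lowest rank over the 6 libraries of 71.2, 75.5, 66.3 and 66.3.

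Only 1 of the 12 members with the highest lowest rank was far from any promoter. This was the region 237 kb from the start of *Myt1l* (chr12:29290822-29291410), with ranks of 96.0, 93.5 and 91.4 in WT and 85.0, 75.03 and 74.8 in G7. Its nearest B10 peak was 459 kb away, the largest such distance among the members with a peak in all 6 libraries. Over all members the median distance to a B10 peak was 5.62 kb, and 236 members (14.5%) had a B10 peak within 1 kb of their edge.

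To ask what members share beyond the rule, their annotation was set beside that of all consensus regions and of the regions missing in G7 alone (1617) and in both clones (4154). These sets use the same WT libraries, and the 95% Wilson intervals cover counting error only, since regions are not independent replicates. Promoters made up 28.2% of members (26.0 to 30.4), close to the 30.9% of consensus regions and above the 20.2% (18.3 to 22.2) of regions missing in G7 alone and the 23.1% (21.8 to 24.4) of those missing in both clones. Introns held 32.9% and intergenic stretches 33.1% of members. A share of 17.4% of members lay over 100 kb from a protein-coding start, against 28.9% of the regions missing in G7 alone.

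The promoter share was higher among strong members. Among the 129 members with a mean rank over 50 it was 54.3% (45.7 to 62.6), against 23.4% (17.2 to 31.0) of the 141 such regions missing in G7 alone, 32.4% (27.0 to 38.4) of those missing in both clones and 43.9% of such consensus regions. In the 5 bands of mean rank up to 50 the share in members was between 23.1% and 33.8%. It was 20.3% to 23.9% in consensus regions and 16.9% to 24.2% in regions missing in G7 alone. Members lay above consensus regions in each of these bands except that from 40 to 50 (23.1% against 23.9%).

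CpG content differed in the same way. A window with 8 or more CpG was found in 11.0% of members (9.54 to 12.6), in 3.28% (2.51 to 4.26) of regions missing in G7 alone, in 5.87% (5.199 to 6.63) of those missing in both clones and in 13.2% of consensus regions. At a mean rank over 50 the share was 41.9% (33.7 to 50.5) in members, 11.3% (7.11 to 17.6) in regions missing in G7 alone and 27.8% in consensus regions. Among promoters alone it was 27.1% (23.3 to 31.4) in members, below the 36.6% of promoters among consensus regions and above the 11.9% (8.85 to 15.9) in those missing in G7 alone. With the rule tightened to a −log10 q of at least 10 in WT and G7, or to a peak in all 6 libraries, the share of CpG-rich members was 21.4% and 26.9%. These shares were above the 13.2% of all consensus regions, which were not restricted in the same way. Of the regions with a peak in all 9 libraries, 23.6% were CpG-rich.

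**Figure D2:**
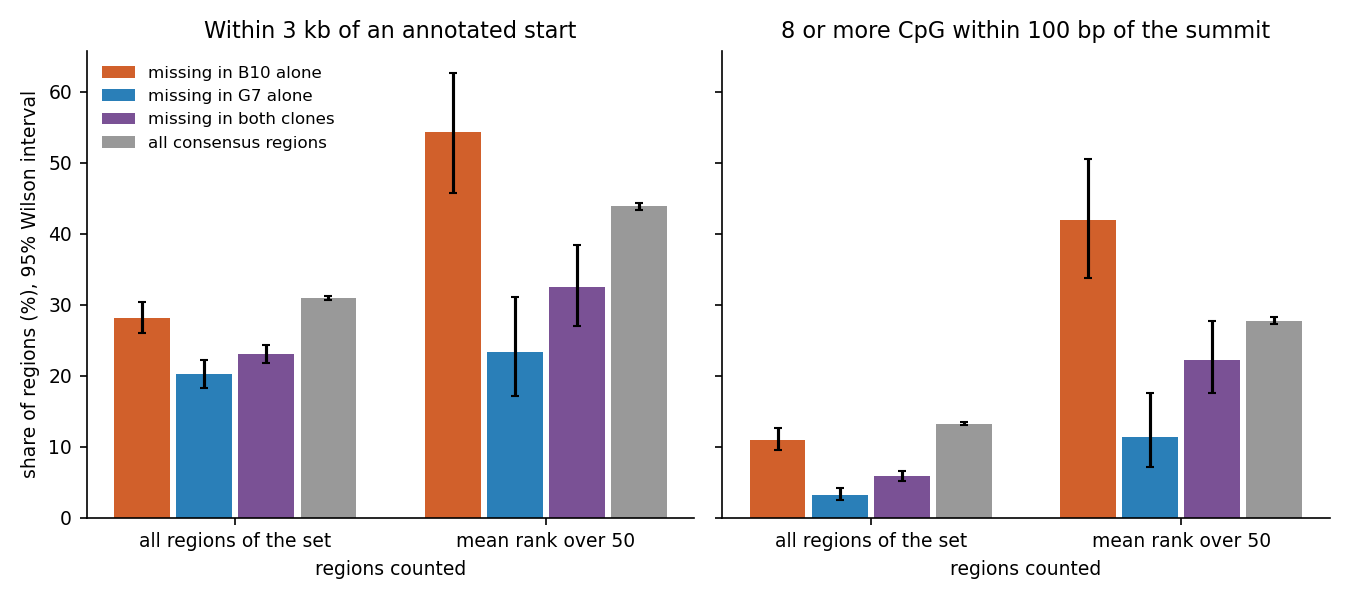
Share of regions within 3 kb of an annotated start (left) and share with 8 or more CpG in the 201 bp around the summit (right), for all regions of a set and for those with a mean rank over 50, with 95% Wilson intervals. Strong members were at promoters in 54.3% and CpG-rich in 41.9%, the highest bars of both panels.

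The *Vldlr* promoter (chr19:27216470-27218133) is an example of this group. *Vldlr* encodes a receptor of lipoproteins and reelin, and its promoter window held 17 CpG. Its ranks were 69.7, 70.8 and 63.8 in WT and 80.2, 80.5 and 78.7 in G7, with every G7 library above every WT library. The promoter of *Hdac11*, a histone deacetylase gene (chr6:91156397-91157141), had ranks of 50.6, 53.7 and 45.2 in WT and 76.9, 70.6 and 73.8 in G7. The *Fign* promoter (chr2:64097585-64098745), at a gene for a microtubule-severing enzyme, went the other way, with 72.5, 73.3 and 70.5 in WT and 62.2, 60.7 and 56.8 in G7. These examples and *Panx1*, below, were picked after their values were seen. None of them passed the test of fold enrichment between G7 and WT described below. The promoter of *Panx1*, a channel gene (chr9:15044326-15045915), had overlapping lines, with 73.0, 65.1 and 68.4 in WT and 65.5, 74.1 and 72.2 in G7.

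Motifs were counted as exact matches on either strand in the 201 bp window. An AP-1 match was in 23.0% of members (21.01 to 25.1), in 25.2% (23.2 to 27.4) of regions missing in G7 alone, in 28.5% (27.1 to 29.9) of those missing in both clones and in 18.4% of consensus regions. Outside promoters it was in 26.4% of members and 26.7% of regions missing in G7 alone, against 21.02% of consensus regions, and at promoters in 14.2% of members against 12.6% of consensus promoters. Whether the share lay above or below that of consensus regions turned with the choice of members: it was 15.4% over the 442 members with a peak in all 6 libraries, 15.3% without replicate 3, and 16.3% at a mean rank over 50, where consensus regions had 18.5%. The first 2 of these sets held 38.0% and 33.8% promoters, and consensus regions were not restricted in the same way. In each of the 5 bands of mean rank up to 50 members were above consensus regions, at 18.5% to 26.9% against 12.6% to 20.9%. The GC-box GGGCGGG of KLF and SP factors was in 7.46% of members (6.28 to 8.84), in 2.66% (1.98 to 3.56) of regions missing in G7 alone and in 7.73% of consensus regions. A CTCF match was in 3.39% of members (2.61 to 4.39), below the 5.01% of consensus regions.

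Matches to the other motifs were near or below the level of consensus regions. TEAD (ACATTCC) was in 4.19% of members and 5.63% of consensus regions, RUNX (TGTGGTT) in 7.40% and 8.85%, SOX (CCTTTGT) in 3.76% and 5.37%, the E-box CAGCTG in 12.8% and 14.7%, and ETS (CCGGAAG) in 1.97% and 2.93%. CEBP matches (TTGCACAA or TTGCGCAA) were in 0.925% and 0.920%, the CREB site TGACGTCA in 0.493% and 0.725%, MEF2 in 0.678% and 0.602%, the A tract AAAAAAAA in 4.32% and 4.98%, and NFI (TTGGC and GCCAA with 5 bases between them) in 1 member. A window that was mostly repeat-masked was found in 6.91% of members (5.77 to 8.24), against 4.94% of consensus regions and 6.25% (5.17 to 7.53) of regions missing in G7 alone.

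The share of consensus regions that were members varied between chromosomes. Chromosome 12 had the highest share, with 130 of 3888 consensus regions (3.34%, 2.82 to 3.96), followed by chromosome 9 (2.44%, 2.03 to 2.93) and chromosome 5 (2.27%, 1.89 to 2.71). The lowest shares were on chromosomes 17 (0.799%, 0.575 to 1.11), 13 (0.909%, 0.671 to 1.23) and 6 (1.02%, 0.789 to 1.32). The regions missing in G7 alone had another order, with the highest shares on chromosomes 2 (2.83%) and 17 (2.81%), while chromosome 12 had 1.08%. The median rank of the regions open in all 9 libraries tended to fall in B10, relative to WT, as the share of members rose, with exceptions. In B10 it was above WT by 5.68 on chromosome 6 and by 4.91 on chromosome 13, and below it on chromosome 12, where the difference was -1.21. On chromosome 5 the difference was -2.33, but on chromosome 9, with a high share, B10 was above WT by 0.58. Over the 19 chromosomes the share of members and this difference of B10 from WT had a Pearson r of -0.63 (Spearman rho -0.53), and all points come from the same libraries. Over 253 windows of 10 Mb the Pearson r was -0.38. Such a relation was not particular to the members: regions missing in G7 alone and the difference of G7 from WT had a Pearson r of -0.78 over the chromosomes. The part of these shifts in the shares was not tested.

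**Figure D3:**
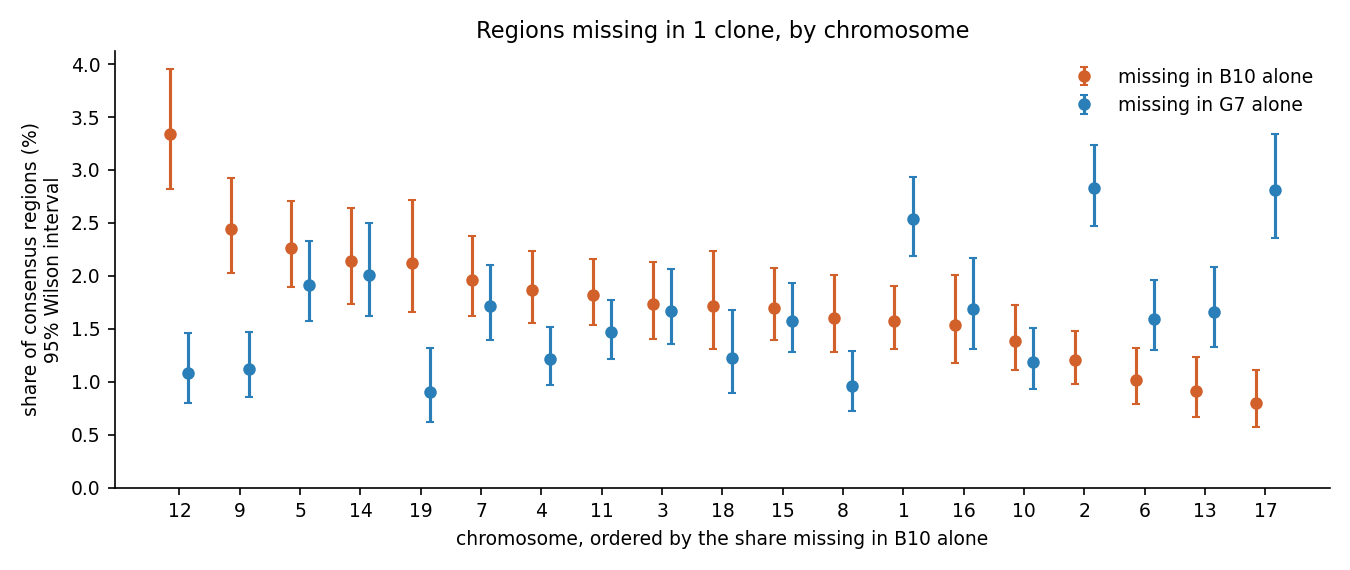
Share of consensus regions missing in B10 alone (orange) and in G7 alone (blue) on each chromosome, with 95% Wilson intervals, ordered by the B10 share. Chromosome 12 is highest for B10 at 3.34%, and chromosome 17, lowest for B10 at 0.799%, is among the highest for G7 at 2.81%.

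Along the chromosomes members were scattered. Taken in order among consensus regions, 1488 members had no member beside them, 110 stood in 55 pairs and 24 in 8 runs of 3. No run was longer. The longest run spanned 178 kb inside *Kirrel3*, an adhesion gene (chr9:34557696-34736007), and others lay in *Syne1*, which encodes a nuclear envelope spectrin (36.9 kb), across *Plekhh1* and *Pigh* (61.4 kb), near *Ptprc* and *Atp6v1g3* (98.3 kb), in *Fam222a* (29.97 kb) and in *Zfp423* (28.2 kb). In windows of 10 Mb the highest share was 5.95% (3.89 to 9.01), on chromosome 9 from 30 to 40 Mb, and 13 of 253 windows held no member.

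Members were nearest to 1389 protein-coding genes, of which 1214 had 1 member and 35 had 3 or more. *Zfp423* had the most, with 8 of its 24 consensus regions (33.3%), all inside the gene and spread over 192 kb. None of its regions was missing in G7 alone and 2 were missing in both clones. *Flrt2*, an adhesion gene, had 6 of 72, *Kirrel3* 6 of 55, *Npas3*, a bHLH-PAS factor, 5 of 30, *Nrp2*, a co-receptor of semaphorins and VEGF, 5 of 33 and *Tmem45b* 5 of 17. *Fam222a* had only 3 consensus regions and all of them were members. These genes were picked for their count of members, so the counts describe the members and test nothing.

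At *Zfp423* the strongest member was an intronic region 257 kb downstream of the 5′ end of the gene (chr8:87701654-87703206). Its ranks were 81.4, 78.4 and 80.3 in WT and 28.9, 47.8 and 40.4 in G7. A member at an internal start site (chr8:87803474-87805176) had ranks of 70.7, 73.6 and 70.01 in WT and 46.0, 28.0 and 45.7 in G7. At both regions every G7 library lay below every WT library. Their fold enrichments differed by -0.65 ± 0.17 and -0.43 ± 0.18 (SE) on the log2 scale between G7 and WT, which did not pass the threshold (limma adjusted p = 0.11 and 0.28). The other 6 members had WT ranks of 14.3 to 45.8 and G7 ranks of 3.27 to 44.4.

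Regions of *Zfp423* that were open in all 9 libraries had not been chosen by the rule, and they were not alike in B10. The region over the 5′ end (chr8:87958131-87959626) had ranks of 84.4, 81.3 and 82.6 in WT, 87.2, 85.6 and 86.7 in G7 and 86.8, 85.1 and 86.2 in B10. A region 20.6 kb into the gene (chr8:87938186-87939715) had 87.7, 88.6 and 89.1 in WT and 87.7, 86.8 and 83.4 in G7, but 25.1, 20.001 and 37.4 in B10. A region 138 kb into the gene (chr8:87821531-87822470) had 83.1, 77.7 and 77.7 in WT, 80.7, 62.7 and 63.1 in G7 and 47.0, 27.2 and 25.1 in B10. At these intronic regions every B10 library was below every WT and G7 library, whereas at the 5′ end B10 overlapped G7 and lay above WT. The other 2 regions open in all libraries, 32.0 kb into the gene and 64.0 kb upstream of it, overlapped between WT and B10, with ranks of 76.9 to 91.6 in WT and 77.4 to 87.5 in B10 at the first and of 37.4 to 52.1 in WT and 29.5 to 52.5 in B10 at the second.

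**Figure D4:**
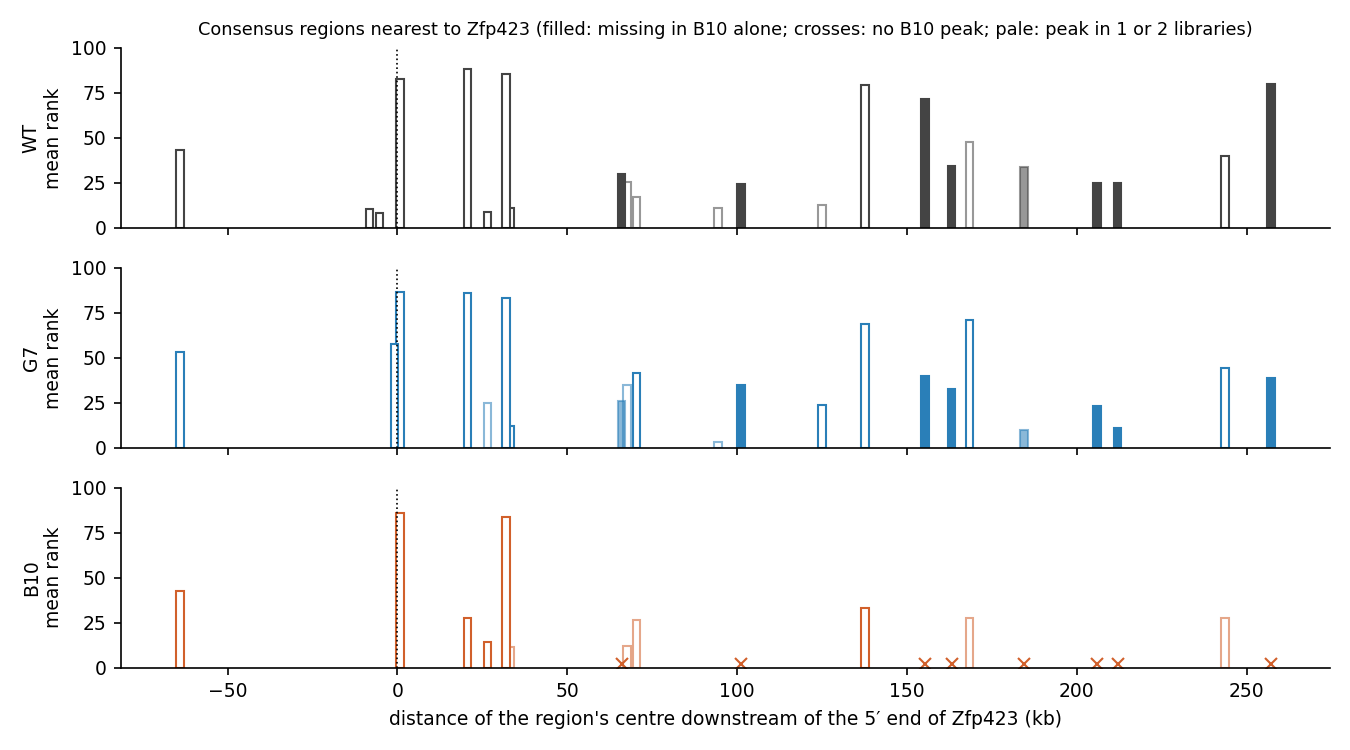
Mean percentile rank of the 24 consensus regions nearest to *Zfp423* in WT, G7 and B10, by distance from the 5′ end of the gene in kb. Filled bars are the 8 members, crosses mark that no B10 library held a peak there, and pale bars rest on 1 or 2 libraries. The region at the 5′ end stays at a rank over 80 in all 3 lines, while the members lie 66.0 to 257 kb downstream.

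To place other genes of the lineages, each consensus region was assigned to the nearest protein-coding start. Near 30 adipocyte genes, 16 of 301 regions were members (5.32%, 3.30 to 8.46), against 1.70% of all consensus regions, 4 (1.33%) were missing in G7 alone and 8 (2.66%) in both clones. Without the 24 regions of *Zfp423* the share was 8 of 277 (2.89%, 1.47 to 5.59), an interval that includes the 1.70% of all consensus regions. The other members of this list were weak. *Adipoq*, encoding adiponectin, had a member 34.7 kb from its start with ranks of 24.9 and 24.8 in WT replicates 2 and 3 and 28.3, 46.7 and 26.4 in G7. *Ebf2*, a factor of brown and beige fat precursors, had one 49.9 kb from its start, in an intron of *Gm30806*. Its ranks were 33.2 and 14.4 in WT replicates 2 and 3 and 38.6 and 27.8 in G7 replicates 2 and 3. The other genes were *Cebpd*, *Ebf1*, *Klf5* (2 regions), *Lep* and *Lipe*.

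Shares near the other lineages were lower. Members were 3 of 450 regions near cartilage genes (0.667%, 0.227 to 1.94), 3 of 184 near bone genes (1.63%, 0.556 to 4.68), 1 of 156 near muscle genes (0.641%, 0.113 to 3.54) and 2 of 209 near mesenchymal progenitor genes (0.957%, 0.263 to 3.42). A strong member of the cartilage list lay 62.4 kb from *Acan*, which encodes aggrecan (chr7:78990027-78991058), with ranks of 75.2, 70.2 and 65.0 in WT and 83.7, 80.9 and 77.5 in G7. In rank every G7 library was above every WT library there, but the fold enrichments of the lines overlapped. Their difference of 0.19 ± 0.09 (SE) on the log2 scale did not pass the threshold (limma adjusted p = 0.35). The bone members lay near *Runx2*, *Sp7* and *Tnfrsf11b*, and the muscle member near *Cdh15*.

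Among signalling and matrix genes, members were 8 of 583 regions near TGF-β and BMP genes (1.37%), 6 of 472 near Wnt genes (1.27%), 2 of 266 near Hippo genes (0.752%) and 4 of 426 near matrix genes (0.939%). Examples are an intron of *Smad3*, a transducer of TGF-β, the promoter of *Tnc*, encoding tenascin-C, and the *Dkk2* promoter, at a gene for a Wnt antagonist. The *Tnc* promoter (chr4:64020761-64021334) had ranks of 25.4, 32.6 and 38.5 in WT and 31.5 and 35.1 in G7 replicates 2 and 3, and the lines overlapped. No member lay near the 166 regions of genes for AP-1 subunits (95% Wilson upper bound 2.26%) or the 96 regions of zinc finger repressors and ATRX partners (3.85%). Imprinted genes had 5 of 244 (2.05%), interferon response genes 1 of 65 (1.54%) and p53 targets and cell cycle inhibitors 1 of 171 (0.585%).

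Whether members differed in strength between G7 and WT was tested on log2 fold enrichment, centred at the median of each library, with limma over the 49535 regions that had a peak in all 6 WT and G7 libraries. The rule did not use this contrast, but only 442 of 1622 members had a value in all 6 libraries and could enter. After Benjamini-Hochberg adjustment 9 members were higher and 23 lower in G7 (2.04% and 5.204% of 442), while 0.773% of all tested regions were called higher and 0.874% lower. The median difference was -0.07 over the members and 0.03 over all regions. The tested members were weaker than all tested regions, with median fold enrichments per library of 5.81 to 7.37 against 10.3 to 11.4. The shares of calls were not matched for strength. Pairing the libraries by replicate number gave 23 members higher and 48 lower, beside 2.75% and 2.50% of all regions. Calls over all regions depended on single libraries, and those at members fell with them. Without WT replicate 2 limma called 0 members and 1 of all 49535 regions, and at an unadjusted p under 0.05 it had 50 members higher and 75 lower, beside 3348 and 2594 of all regions. Without WT replicate 3 it called 0 members and 0 of all regions, with 47 members higher and 71 lower at an unadjusted p under 0.05, beside 3361 and 2506 of all regions. Without G7 replicate 2 it called 2 members higher and 5 lower, beside 21 and 90 of all regions, and without G7 replicate 3 it called 1 higher and 3 lower, beside 4 and 46. Without G7 replicate 1 it called 4 higher and 15 lower, beside 97 and 238.

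The largest difference with a lower value in G7 was at the *Gm14406* promoter (chr2:177577805-177578445). Its fold enrichments were 31.2, 27.2 and 28.3 in WT and 10.7, 7.53 and 8.20 in G7, a difference of -1.62 ± 0.13 (SE, limma adjusted p = 0.011). *Gm14406* belongs to a cluster of similar zinc finger genes, so reads could have been split between copies, and the value is uncertain. The intronic regions near *Tmem211* (-1.58 ± 0.28, SE) and in *Susd4* (-1.36 ± 0.18, SE) were printed above with their AP-1 matches. The *Tec* promoter, at a gene for a tyrosine kinase of blood cells (chr5:72868114-72869047), had 14.8, 14.8 and 12.005 in WT and 3.78, 5.42 and 6.31 in G7 (-1.35 ± 0.21, SE, limma adjusted p = 0.026). At all 4 regions the WT and G7 libraries did not overlap.

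The reverse was seen at the *Pigh* promoter, at a gene of GPI anchor synthesis (chr12:79089125-79090131). Its fold enrichments were 5.47, 7.20 and 7.30 in WT and 18.2, 16.8 and 14.7 in G7, a difference of 1.42 ± 0.14 (SE, limma adjusted p = 0.012). The promoters of *Kcnf1*, a potassium channel subunit (1.44 ± 0.16, SE, limma adjusted p = 0.015), and of *Kctd12*, an auxiliary subunit of GABA-B receptors (1.504 ± 0.21, SE, limma adjusted p = 0.020), were also higher in G7, as was an intron of *Tjp1*, encoding the tight junction protein ZO-1 (0.98 ± 0.15, SE, limma adjusted p = 0.025). *Kcnf1* had 5.53, 5.24 and 4.46 in WT and 14.7, 12.5 and 11.2 in G7. Of the 9 members higher in G7, 7 were at a promoter, and of the 23 lower, 10 were, beside 168 of all 442 members tested (38.0%). Promoters among the calls over all regions were not counted, and these numbers are too small to compare the directions.

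**Figure D5:**
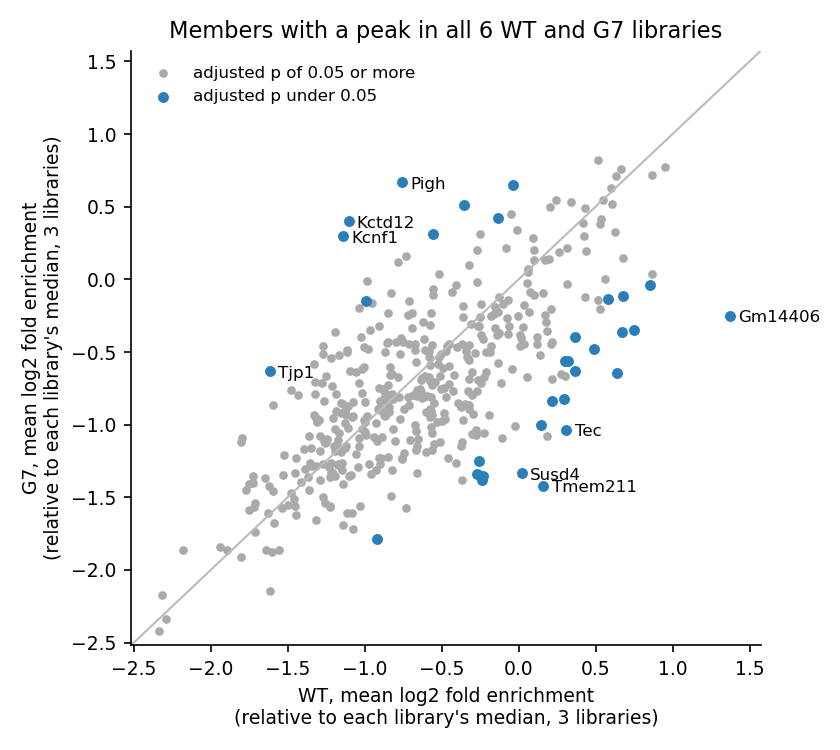
Mean log2 fold enrichment in WT (x axis) and G7 (y axis), relative to the median of each library, at the 442 members with a peak in all 6 libraries. Blue points have an adjusted p under 0.05 (9 above and 23 below the line of equality), and the 4 largest differences in each direction carry the name of the nearest protein-coding gene.

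To ask whether the surroundings of members differed in B10, regions open in all 9 libraries were taken within 50 kb of a member, which gave 5070 of 46449. The rule did not use their strength. Their median rank minus that of all regions open in all 9 libraries was -1.71, -1.54 and -1.79 in the B10 replicates, 0.293, 0.591 and 0.805 in WT and 0.537, 0.697 and 0.839 in G7. Every B10 library lay below every other library. The mean was -1.68 ± 0.13 in B10, 0.56 ± 0.26 in WT and 0.69 ± 0.15 in G7 (SD, n = 3 each). The difference of B10 from WT was -2.24 ranks (exact two-sided permutation p = 0.1, adjusted p = 0.15), that from G7 was -2.37 (exact permutation p = 0.1, adjusted p = 0.15), and G7 and WT differed by 0.13 (exact permutation p = 0.6, adjusted p = 0.6). The smallest p that 3 libraries against 3 allow is 0.1. Members tended to be fewer on chromosomes where regions open in all 9 libraries ranked higher in B10 than in WT (Pearson r -0.63 over 19 chromosomes). The subtracted median was taken over all chromosomes, and the part of this in the difference was not tested. Without subtracting the median of all open regions, the B10 libraries were at 69.9, 70.6 and 68.4 and the WT libraries at 70.4, 70.1 and 69.8, which overlapped (difference -0.46, exact permutation p = 0.8), while the median of all open regions was 70.2 to 72.1 in B10 and 69.0 to 70.1 in WT.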

How the data were processed

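Omni-ATAC-seq was carried out on 3 WT, 3 B10 and 3 G7 libraries of C3H/10T1/2 cells, grouped by their labels. The authors aligned paired-end reads to mm10 with Rsubread and called peaks for each library with MACS2 (version not given in the sources used here) in paired-end mode, without pooling. Whether an input was used is unclear, since the names of the peaks mention one and the methods do not. The deposited lists give each peak a fold enrichment (a ratio to the background), a −log10 p-value, a −log10 q-value and a display score. The lowest −log10 q-value was near 1.30 in each deposited list, a q-value threshold of 0.05. The score and the −log10 p-value were not used. No deposited list holds read counts, so the depth of each single library and its precision are unknown. Every peak ended within its GRCm38 chromosome.

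Peaks were merged and ranked with Python 3.11.15 (pandas 2.3.3) and annotated with GENCODE release M21, with promoters 3 kb either side of any transcript start. The test of G7 against WT used limma 3.58.1 (R 4.3.3) with a mean trend, checked on simulated data. Same-numbered WT and G7 libraries deviated together (correlations of 0.58, 0.42 and 0.27 for replicates 1, 2 and 3), so the fit with the replicate number as a block is given beside the main one. Means of libraries were compared with exact permutation tests.

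The members, the 14 gene lists, the 13 motifs and the markers were chosen with earlier results of these data known. Members were named where they were among the 12 with the highest lowest rank over the 6 WT and G7 libraries, the 12 such at promoters of protein-coding genes, the 2 strongest per gene list, in the 6 longest runs, among the 4 largest differences in each direction between G7 and WT, or at the 6 genes with the most members, and further ones were picked after their values were seen. Sequences follow the same rule, outside exons. Members on chromosomes X and Y were outside the rule. Alternatives were another number of peaks, another threshold, other ways to merge, other windows, other scales and libraries left out.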

Additional observations from a re-analysis of the deposited data

How the results depend on the processing

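The number of members was 1621 to 2231 with all lists cut to the same number of peaks, with peaks within 100 bp merged, with regions from WT and G7 peaks only and with summits within 100 bp. It was 457 when WT and G7 peaks needed a −log10 q of at least 10, 442 when all 6 libraries needed a peak, 4864 from replicate 1 alone, and 854 to 2649 with 1 library or 1 replicate number left out (lowest without G7 replicate 3, highest without B10 replicate 2), where fewer libraries loosen or tighten the rule by construction. For members with a −log10 q of at least 10 and for those with a peak in all 6 libraries, the promoter share was 33.9% and 38.0%, the AP-1 share 20.4% and 15.4%, the share with 8 or more CpG 21.4% and 26.9%, and the share near adipocyte genes 1.99% and 2.33%, beside 0.480% and 0.465% of all consensus regions. With 1 replicate number left out these shares were 28.3% to 33.8%, 15.3% to 25.6% and 12.4% to 16.7%, and the adipocyte share with 1 library or replicate number left out was 2.99% to 7.37%, in each case above that of all consensus regions. The CpG and adipocyte alternatives were chosen after seeing the data. Within 1 kb of a start the promoter share was 17.7%. Within 50 bp of the summit the AP-1 share was 16.5% (13.2% of consensus regions). Without *Zfp423* the adipocyte share was 2.89% (1.47 to 5.59), beside 1.70% of all consensus regions. The other adipocyte alternatives kept *Zfp423*. Of the adipocyte members with a peak in all 6 libraries, all but that at *Cebpd* were regions of *Zfp423*.

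In the comparison of G7 with WT, 32 members were called. Percentile ranks gave 63 (15 higher and 48 lower in G7, 3.39% and 10.9% of members, beside 3.13% and 3.39% of all regions), the replicate block 71 (23 higher and 48 lower, beside 2.75% and 2.50%) and replicates 2 and 3 only, chosen after seeing the data, 48 (12 higher and 36 lower, beside 1.93% and 1.58%). With 1 WT or G7 library left out the counts were 0 to 38, 0 to 10 higher and 0 to 28 lower, and the median difference of members stayed below that of all regions in each fit. Calls over all regions fell in the same fits (0 or 1 without WT replicate 2 or 3). The lower B10 ranks near members kept their direction under all 11 alternatives, at -0.46 ranks without centring (exact permutation p = 0.8), -1.33 within 10 kb (exact permutation p = 0.2) and -1.30 within 200 kb, -2.38 to -2.12 with 1 library left out, and -2.24 with the replicate block (exact sign-flip permutation p = 0.25, the smallest that 3 pairs allow). With the depth of single libraries unknown, absence of a peak cannot be given an upper limit.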

Other observations

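On chromosome X, which the rule leaves out, 39 of 2165 consensus regions (1.80%) were missing in B10 alone and 44 in G7 alone.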
